A study of Mus musculus with 4 samples.

Results

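The core circadian clock genes were Per1, Per2, Per3, Cry1, Cry2, Clock, Npas2, Nr1d1, Nr1d2 and Dbp, 10 of the 28193 genes counted by fosTRAP-seq, and they were chosen by gene symbol. All 10 had more than 5 counts in every library and were among the 22338 genes tested. fosTRAP-seq sequences RNA bound to HA-tagged ribosomes of neurons that switched on Fos in a chosen window. Male C57BL/6J mice of 3 to 5 months had received in CA1 of the hippocampus an AAV8 vector with a 4-hydroxytamoxifen (4-OHT)-dependent Cre under the c-Fos promoter, and an AAV9 vector with Cre-dependent HA-Rpl22 under the EF1a promoter. The sample labels name the genotype as cFos-Cre:Ribotag and the tissue as dorsal hippocampus. All mice, controls included, were kept from sleep for 5 h from zeitgeber time (ZT, hours after lights on) 0 on day 0 and received 4-OHT at ZT 2. On day 7 the sleep-deprived (SD) mice were kept from sleep for 5 h again, the non-sleep-deprived (NSD) mice were left undisturbed, and both groups were collected at ZT 5. Each library came from the CA1 of 5 pooled mice, so the 10 mice of a group made n = 2 libraries, each with a batch number that pairs an NSD with an SD library. A single ZT was sampled, so the values below are levels at that hour and hold no rhythm or phase.

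The mammalian clock is a feedback loop of transcription. CLOCK, or its relative NPAS2, binds E-boxes together with BMAL1 (gene symbol Arntl in the table) and switches on the Per and Cry genes, whose proteins return to the nucleus and block that activation. A further loop runs through REV-ERBα (Nr1d1) and REV-ERBβ (Nr1d2), repressors of Arntl, and output factors such as DBP act on D-boxes. Per1 is also an activity-regulated gene that responds to CREB, and several clock genes are known to respond in the brain to time spent awake.

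The libraries held between 153511705 and 195910235 counts. The endothelial markers (Cldn5, Flt1, Pecam1, Cdh5, Tek and Tie1) were lower in SD, 5 of the 6 without overlap between the groups, beside 20.0% of the protein-coding genes. Their summed level was 37.0 and 51.3 CPM (counts scaled with TMM factors to a common library total) in the NSD libraries and 30.3 and 20.1 CPM in the SD libraries, with 0 of 6 called by edgeR. With the batch number as a block 5 of 6 were called lower, beside 8.47% of all genes. DESeq2 called 4 lower (Flt1, Cdh5, Tek and Tie1), beside 1296 of the 21038 genes it gave an adjusted p. The summed CA1 markers were at 1149 and 1285 CPM in the NSD and at 1025 and 1144 CPM in the SD libraries, with 0 of 4 called by edgeR. Wfs1, Fibcd1 and Man1a were lower in both SD libraries without overlap, 3 of 4 beside 20.0% of the protein-coding genes. The block called these 3 lower, beside 8.47% of all genes, and so did DESeq2, beside 1296 of 21038 genes. Mpped1, the fourth, was at 437 and 454 CPM in the NSD and at 481 and 504 CPM in the SD libraries (log2 fold change 0.14, edgeR adjusted p = 0.412). Markers of cells that the vectors were not aimed at were present in every library, with summed levels of 1399 to 1683 CPM for oligodendrocytes, 414 to 463 CPM for astrocytes and 54.8 to 71.9 CPM for microglia. The CA2/CA3 markers, summed, were at 47.2 and 49.8 CPM in the NSD and at 53.1 and 58.3 CPM in the SD libraries, with 3 of 4 higher without overlap (beside 26.5% of the protein-coding genes), and the mural markers at 42.2 and 46.1 against 39.7 and 32.6 CPM, with 2 of 3 lower without overlap (beside 20.0%). Of either list 0 were called by edgeR or DESeq2, 1 of each had an unadjusted p under 0.05 (beside 14.6%), and 1 mural marker was called lower with the block. The summed choroid plexus and ependyma markers were uneven, at 18.6 and 75.2 CPM in the NSD and at 31.1 and 8.71 CPM in the SD libraries. Rpl22, whose tagged copy pulls down the ribosomes, ranged from 610.2 to 1045 CPM. The part of these differences in the clock gene values was not tested, and in pooled tissue fewer cells expressing a gene cannot be told apart from less RNA per cell.

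Per length of exon, the clock genes ranged from the middle to the upper end of the protein-coding genes. Levels are given as CPM per kilobase of annotated exon, as the mean ± SD over the 4 libraries. Nr1d1 stood highest, at 26.3 ± 1.63, above 93.5% of the protein-coding genes. Thra, the thyroid hormone receptor gene on the opposite strand, shares 1694 exon bases with Nr1d1, which is 52.3% of the Nr1d1 exons, and Thra was counted at 592% of the Nr1d1 level, so the Nr1d1 value depends on how the authors' counting used strand. Cry2 followed at 12.9 ± 0.287 and Per1 at 12.7 ± 1.37, and their libraries overlapped. Dbp (10.3 ± 0.934), Npas2 (10.2 ± 0.293), Nr1d2 (10.2 ± 1.05) and Clock (9.88 ± 0.803) formed the next group, in which each gene's range of libraries overlapped that of its neighbour. Per2 was lower, at 6.18 ± 0.44, and Per3 (2.36 ± 0.249) and Cry1 (1.6 ± 0.0682) were the lowest, Cry1 above 42.8% of the protein-coding genes. Nr1d1 and Cry2, Per1 and Dbp, Clock and Per2, Per2 and Per3, and Per3 and Cry1 did not overlap in any library. Within families, Cry2 was thus far above Cry1 per length, and the ratio of Cry2 to Cry1 counts, at 14.1 and 13.9 in the NSD and 14.6 and 13.3 in the SD libraries, overlapped between the groups. When the longest transcript replaced the summed exons as the length, Nr1d1 and Cry2 stayed highest, while the median over the 10 genes went from 10.2 to 15.4 and Per1 went from rank 3 to rank 6.

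**Figure D1:**
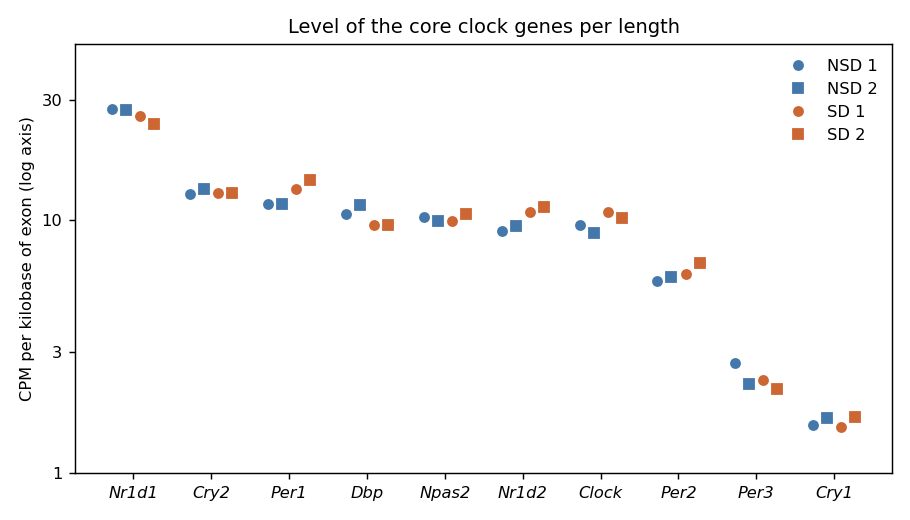
Level of each core clock gene per length, with the genes on the horizontal axis in order of mean and CPM per kilobase of exon on a logarithmic vertical axis. Blue points are NSD and orange points SD libraries, with circles for batch 1 and squares for batch 2. Nr1d1 stands above the others in all 4 libraries, from 24.1 to 27.7, and Cry1 is lowest, from 1.52 to 1.66.

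None of the 10 clock genes was called between SD and NSD, where a call needed an adjusted p under 0.05 in edgeR and a fold change over 1.2. Across all genes tested 3.10% were called, 0.770% higher and 2.33% lower in SD, and 1.49% of the protein-coding genes were called. At an unadjusted p under 0.05 there were 4 of the 10 (Per1, Nr1d2, Clock and Dbp), beside 14.6% of the protein-coding genes. With the batch as a block 0 were again called, against 11.5% of all genes and 7.07% of the protein-coding genes. Per1, Nr1d2 and Dbp had an adjusted p under 0.05 there without reaching the fold threshold, where 13.8% of all genes passed on p alone. DESeq2 called Per1 and Nr1d2 higher, 2 of the 10 beside 3.19% of the genes it gave an adjusted p. Both SD libraries were above both NSD libraries for Per1, Per2, Clock and Nr1d2, 4 of the 10 beside 26.5% of the protein-coding genes, and below them for Nr1d1 and Dbp, 2 of the 10 beside 20.0%. The shares without overlap are close to the background, so the order of the libraries alone says little about the clock genes as a group. Their log2 fold changes ran from −0.21 to 0.25 with a median of 0.0034, beside a median of 0.018 over the protein-coding genes and −0.016 over all genes, and 5 were above and 5 below 0. The 95% intervals of all 10 lay between −0.38 and 0.41 on the log2 scale.

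**Figure D2:**
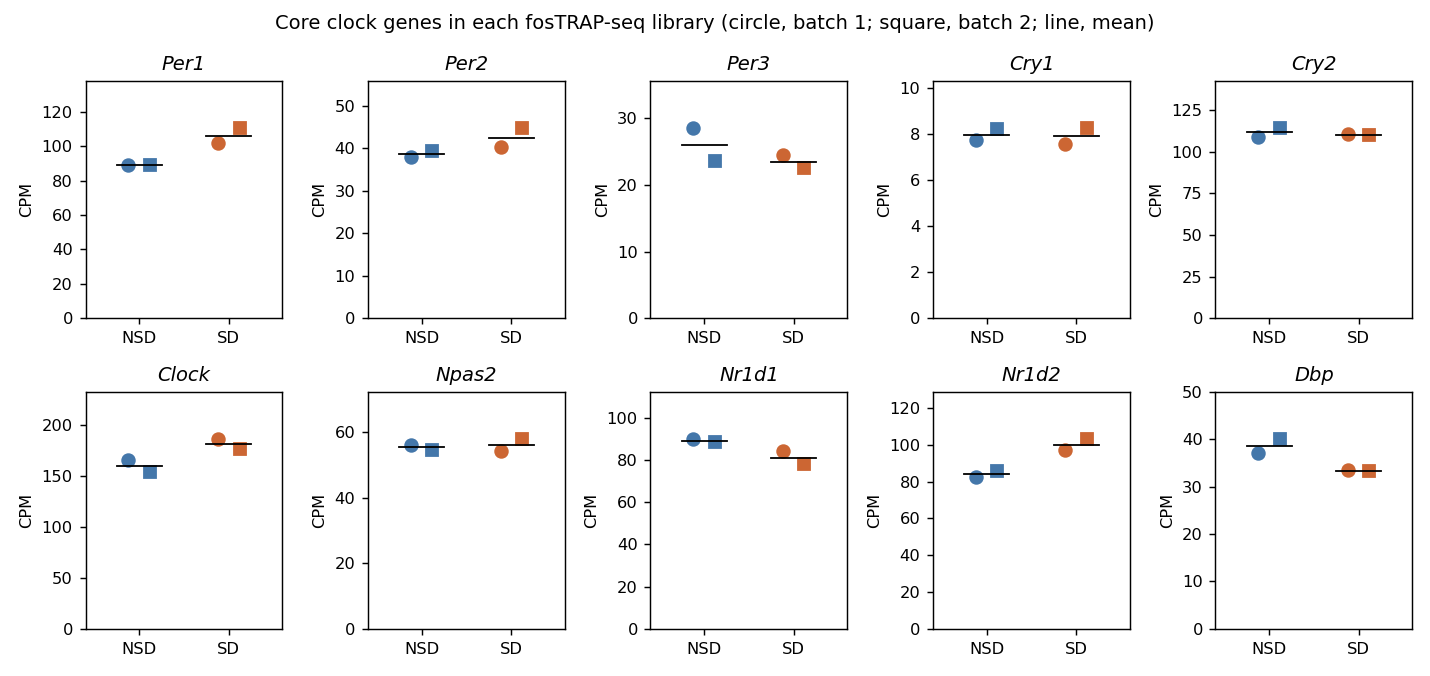
CPM of the 10 core clock genes in each library, a panel per gene, with the vertical axis starting at 0. Blue points are NSD and orange points SD libraries, circles are batch 1, squares batch 2, and the line is the mean of the group. Per1, Per2, Clock and Nr1d2 are higher in both SD libraries, Nr1d1 and Dbp are lower in both, and the other 4 genes overlap.

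Per1, whose protein represses CLOCK and BMAL1, had the largest difference among the 3 Period genes over all 4 libraries. Without NSD 2, Per3 was at −0.28 and Per1 at 0.25. Per1 (ENSMUSG00000020893, GRCm39 chromosome 11 from 68986043 to 69000786, plus strand) was at 89.0 and 88.9 CPM in the NSD libraries and at 102 and 110.3 CPM in the SD libraries, and its log2 fold change came to 0.25 (SE 0.0685, 95% interval 0.10 to 0.41, edgeR adjusted p = 0.0852). The NSD libraries were nearly equal, both SD libraries lay above them, and the fold of 1.19 was just short of the threshold. With the block the adjusted p was 0.00900 at the same fold, and DESeq2 called Per1 higher (log2 fold change 0.28, adjusted p = 0.00949). Within the batches the log2 ratio of SD to NSD was 0.20 in batch 1 and 0.31 in batch 2.

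Per2, the Period gene with the closest tie to sleep timing in human families, was at 38.0 and 39.3 CPM in the NSD and at 40.4 and 44.7 CPM in the SD libraries. Both SD libraries were above the NSD libraries, yet the log2 fold change of 0.14 was not called (SE 0.0750, interval −0.03 to 0.31, edgeR adjusted p = 0.377). Per2 (ENSMUSG00000055866) lies on chromosome 1 from 91343704 to 91387046 on the minus strand. Per3 (ENSMUSG00000028957, chromosome 4 from 151088109 to 151129122, minus strand), the Period gene that the clock's oscillation depends on least, was at 28.5 and 23.6 CPM in the NSD and at 24.5 and 22.5 CPM in the SD libraries. The Per3 libraries overlapped between the groups (log2 fold change −0.15, interval −0.38 to 0.09, edgeR adjusted p = 0.513), and without NSD 1, the highest library, the difference was 0.03. The ratio of Per1 to Per3 counts was 3.12 and 3.77 in the NSD and 4.17 and 4.89 in the SD libraries, and the difference between the Period genes was not tested.

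The promoters of the Period and Cryptochrome genes are shown for the elements through which the clock and CREB act on them. RefSeq promoter windows, 250 bases before to 50 after a transcription start, matched 9 of the 10 genes by symbol (all but Per2), and each was located in GRCm39 by exact match. Both strands were searched for the E-box CACGTG, the cAMP response element TGACGTCA, its 5-base core TGACG, which every full element also contains, the D-boxes TTATGTAA and TTACGTAA, the REV-ERB and ROR element AGGTCA and the GC box GGGCGG. A gene is counted where any of its windows holds a match, with 2 windows for Per1 and 3 for Clock. The shares beside these counts are of single promoter windows. The E-box was in the windows of Per1 and Cry1, beside 7.15% of the 32851 promoters given. The D-box was in the window of Per3 alone of the 9, beside 1.06%. The sites below are 30 bases each, 5′ to 3′ on the gene's strand, with the element in capitals. The Per1 E-box, at chr11:68989597-68989626, begins at −166 from one start and lies in an annotated Per1 exon. Of 2 TGACG matches in the Per1 windows, that at chr11:68990834-68990863 begins at −132 from another start, outside annotated exons, and is printed, while the other, at −246 from the start used for the E-box, lies in a Per1 exon. The Cry1 E-box, at chr10:85020961-85020990, begins at −60, and its 30 bases overlap a Cry1 exon annotated in GENCODE. The Per3 D-boxes, at chr4:151129309-151129338 and chr4:151129262-151129291, begin at −205 and −158. The 30 bases of the distal site overlap an annotated exon of Gm69444, and those of the proximal site overlap no exon.
Per1 E-box: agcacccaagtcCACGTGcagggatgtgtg
Per1 TGACG: gagctcagcggcTGACGtcggtttccctgg
Cry1 E-box: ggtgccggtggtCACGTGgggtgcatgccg
Per3 D-box, distal: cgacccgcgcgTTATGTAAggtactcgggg
Per3 D-box, proximal: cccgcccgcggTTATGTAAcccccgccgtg
Per1 was higher in both SD libraries and Cry1 overlapped between the groups, and a link between these elements and the differences was not tested. The full cAMP response element was in 0 of the 9, beside 1.79% of promoters, and TGACG was in 3 (Per1, Cry1 and Cry2), beside 20.8%. A match is a description of the letters and not evidence of binding in these cells.

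The Cryptochromes, the strongest repressors of CLOCK and BMAL1, were close to 0 in their difference between the groups. Cry1 (ENSMUSG00000020038, chromosome 10 from 84967564 to 85020928, minus strand) was at 7.73 and 8.22 CPM in the NSD and at 7.58 and 8.25 CPM in the SD libraries. Cry2 (ENSMUSG00000068742, chromosome 2 from 92233991 to 92264388, minus strand) was at 109 and 114 CPM in the NSD and at 110.4 and 110.1 CPM in the SD libraries. For both genes the groups overlapped. The log2 fold change of Cry1 was −0.01, with an interval of −0.28 to 0.26 (edgeR adjusted p = 0.977). That of Cry2 was −0.02, with an interval of −0.17 to 0.13 (edgeR adjusted p = 0.929), which leaves out a change of 1.2-fold in either direction. The sign of both values turned under some alternatives.

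Clock was higher in both SD libraries while its paralogue Npas2, which takes its place in parts of the forebrain, was not. Clock (ENSMUSG00000029238, chromosome 5 from 76357715 to 76452639, minus strand) was at 166 and 154 CPM in the NSD and at 186 and 176 CPM in the SD libraries. Its log2 fold change was 0.18 (SE 0.0757, interval 0.01 to 0.35, edgeR adjusted p = 0.239), with log2 ratios of 0.17 and 0.20 within batches 1 and 2. Tmem165, on the opposite strand, shares 11.9% of the Clock exon bases and was counted at 6.58% of the Clock level. Npas2 (ENSMUSG00000026077, chromosome 1 from 39232812 to 39402317, plus strand) was at 56.2 and 54.7 CPM in the NSD and at 54.4 and 57.9 CPM in the SD libraries, which overlapped (log2 fold change 0.02, interval −0.14 to 0.17, edgeR adjusted p = 0.931). Arntl, the partner of both, was at 37.4 and 38.7 CPM in the NSD and at 32.2 and 34.8 CPM in the SD libraries. Arntl was thus lower in both SD libraries and was not called (log2 fold change −0.19, interval −0.35 to −0.02, edgeR adjusted p = 0.215). The intervals of Clock and Arntl did not overlap, and the difference between them was not tested.

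The REV-ERB genes lay on opposite sides of 0. Nr1d2 (ENSMUSG00000021775, chromosome 14 from 4230569 to 4265642, plus strand) was at 82.4 and 85.9 CPM in the NSD and at 97.3 and 103 CPM in the SD libraries. Both SD libraries were higher, by 0.25 on the log2 scale (SE 0.0664, interval 0.10 to 0.40, edgeR adjusted p = 0.0833), which in fold was 1.19 and short of the threshold. The block gave an adjusted p of 0.00746 at the same fold, DESeq2 called Nr1d2 higher (0.27, adjusted p = 0.00835), and the batches gave log2 ratios of 0.24 and 0.26. Nr1d1 (ENSMUSG00000020889, chromosome 11 from 98658758 to 98666159, minus strand) was at 89.8 and 88.5 CPM in the NSD and at 84.1 and 78.1 CPM in the SD libraries. Both SD libraries were lower, and the log2 fold change of −0.14 was not called (SE 0.0674, interval −0.29 to 0.02, edgeR adjusted p = 0.328). Thra, which overlaps Nr1d1, was at 502 and 484 CPM in the NSD and at 521 and 509.9 CPM in the SD libraries (log2 fold change 0.06, edgeR adjusted p = 0.763). The ratio of Nr1d2 to Nr1d1 counts was 0.917 and 0.970 in the NSD and 1.16 and 1.31 in the SD libraries, higher in both SD libraries. The 95% intervals of the REV-ERB genes did not overlap, and the difference between them was not tested.

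The upstream sequences of the REV-ERB genes are printed because these paralogues lay on opposite sides of 0. They run 5′ to 3′ on the gene's strand and stop before the first annotated exon base of the gene itself, although the Nr1d1 window holds exon bases of Gm31862, a lncRNA on the opposite strand. The windows are, for Nr1d2 at chr14:4230340-4230544 and for Nr1d1 at chr11:98666204-98666453 in GRCm39, with the AGGTCA element in capitals.
Nr1d2: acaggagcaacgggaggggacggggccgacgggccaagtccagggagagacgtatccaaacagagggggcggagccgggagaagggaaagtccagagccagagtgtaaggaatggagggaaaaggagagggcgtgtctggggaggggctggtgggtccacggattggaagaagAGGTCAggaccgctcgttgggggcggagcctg
Nr1d1: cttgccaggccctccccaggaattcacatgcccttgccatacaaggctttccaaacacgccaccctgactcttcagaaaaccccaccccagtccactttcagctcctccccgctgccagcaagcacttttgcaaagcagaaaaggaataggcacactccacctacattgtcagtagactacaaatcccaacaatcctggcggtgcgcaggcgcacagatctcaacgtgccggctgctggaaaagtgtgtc
Nr1d2 had AGGTCA at −77, an element found in 3 of the 9 genes (Per1, Clock and Nr1d2) beside 16.3% of all promoters. The Nr1d1 window held no exact match to the elements searched. It was the only gene of the 9 with no GC box in its windows, which 35.7% of all promoters had. Elements outside the windows or with other letters were not searched. A link of these letters to the difference between the genes was not tested.

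Dbp, an output gene of the clock whose protein activates D-box genes, was lower in both SD libraries. Dbp (ENSMUSG00000059824, chromosome 7 from 45354512 to 45359627, plus strand) was at 37.0 and 40.0 CPM in the NSD and at 33.4 and 33.2 CPM in the SD libraries. The log2 fold change was −0.21 (SE 0.0726, interval −0.38 to −0.04, edgeR adjusted p = 0.159), and with the block the adjusted p was 0.0479 at a fold of 0.866, short of the threshold. Sphk2, on the opposite strand, shares 15.5% of the Dbp exon bases, was counted at 122% of the Dbp level and differed by 0.06 on the log2 scale (edgeR adjusted p = 0.735), so the Dbp values, like those of Nr1d1, depend on how the counting used strand.

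Tef and Hlf, the other PAR bZIP factors, which bind the same D-boxes as Dbp, lay on the other side of 0. Hlf was at 219.6 and 248 CPM in the NSD and at 305 and 306 CPM in the SD libraries (log2 fold change 0.38, SE 0.0856, interval 0.19 to 0.58, edgeR adjusted p = 0.0532). Tef was at 249 and 279.8 CPM in the NSD and at 321 and 342 CPM in the SD libraries (0.33, SE 0.0883, interval 0.12 to 0.53, edgeR adjusted p = 0.0874). Both SD libraries were above both NSD libraries for each gene, and with the block both were called higher, at adjusted p = 0.00246 for Hlf and 0.00538 for Tef. DESeq2 also called both. The ratio of Hlf to Dbp counts was 5.94 and 6.21 in the NSD and 9.13 and 9.21 in the SD libraries. The intervals of Hlf and Tef did not overlap that of Dbp, and the difference was not tested.

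**Figure D3:**
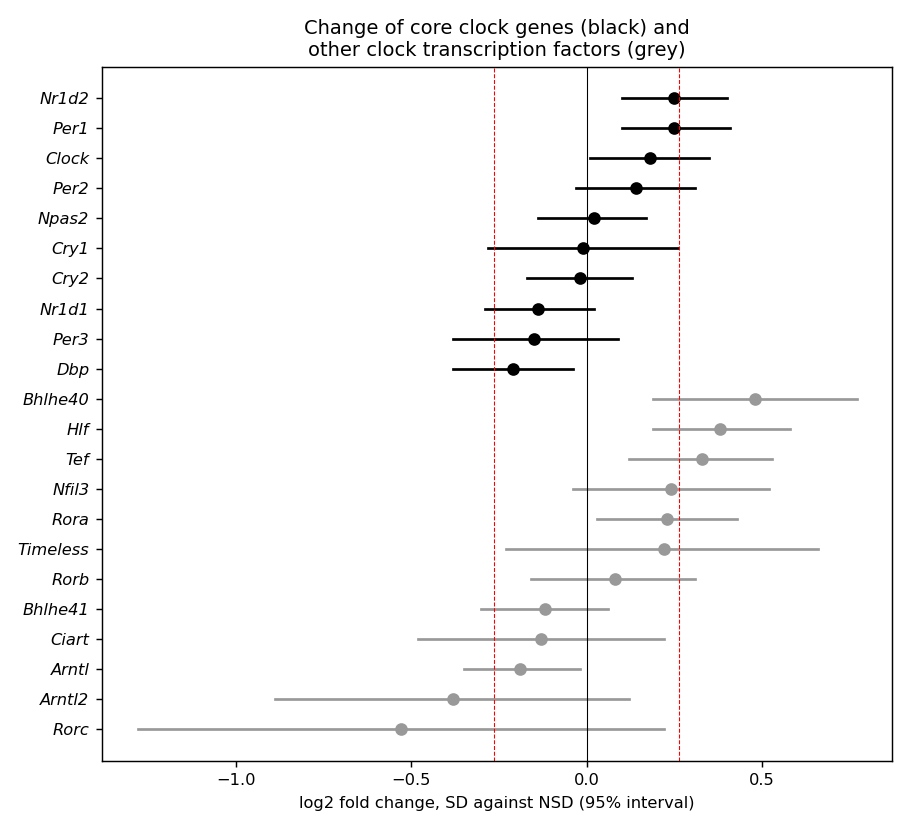
Log2 fold change of SD against NSD for the 10 core clock genes in black and the 12 other clock transcription factors in grey, with 95% intervals from edgeR as bars. Dashed lines mark a fold change of 1.2 in either direction. No core clock gene reaches a dashed line with its point, and Bhlhe40, Hlf and Tef lie beyond it on the right.

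Of the 44 other clock genes 1 was called, beside 3.10% of all genes and 1.49% of the protein-coding genes in the same fit. It was Usp2, the gene of a deubiquitinase that acts on clock proteins. Usp2 (ENSMUSG00000032010, chromosome 9 from 43978318 to 44006924) was at 70.3 and 68.0 CPM in the NSD and at 54.9 and 53.0 CPM in the SD libraries. It fell, by 0.36 on the log2 scale (SE 0.0652, interval −0.51 to −0.21, edgeR adjusted p = 0.0385). The call was lost, at the same direction, without a count filter (adjusted p = 0.0571), with filterByExpr (0.0628), without NSD 1 (0.0825) and without SD 2 (0.0910), and the adjusted p of edgeR and DESeq2 over all alternatives ran from 0.000837 to 0.0910. With the block 4 of the 44 were called, beside 11.5% of all genes and 7.07% of the protein-coding genes, with Bhlhe40, Hlf and Tef higher and Usp2 lower. DESeq2 called these and Gsk3b, 5 of the 44 beside 9.35% of the genes it gave an adjusted p. The median log2 fold change of the 44 genes was 0.06, with 26 (59.1%) above 0 beside 54.2% of the protein-coding genes. Both SD libraries were above both NSD libraries for 17 (38.6%, beside 26.5%) and below them for 10 (22.7%, beside 20.0%).

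Among the 12 other transcription factors, 0 were called, 3 were called higher with the block (Bhlhe40, Hlf and Tef) beside 2.99% of all genes, and the median was 0.15. Bhlhe40 (DEC1), a repressor at E-boxes that is also induced by activity, was at 186 and 244 CPM in the NSD and at 284 and 317 CPM in the SD libraries. This was the largest log2 fold change above 0 of the list (0.48, SE 0.126, interval 0.19 to 0.77, edgeR adjusted p = 0.0788), and with the block the adjusted p was 0.000695. Its paralogue Bhlhe41 stood at −0.12 (interval −0.30 to 0.06, edgeR adjusted p = 0.488), and at −0.21 without SD 1, −0.01 without SD 2 and −0.06 without NSD 1. Rora, an activator of Arntl, had 0.23 (edgeR adjusted p = 0.188). This was 0.14 without SD 1 and 0.15 without NSD 2, and 0.34 without NSD 1 and 0.33 without SD 2. With the block in edgeR its adjusted p was 0.0136 at a fold of 1.17, short of the threshold.

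Among the 15 genes of kinases, phosphatases, ubiquitin ligases and deubiquitinases that act on clock proteins, Usp2 was called and the median was 0.08. Gsk3b, a kinase of REV-ERB and PER proteins, was at 476 and 485 CPM in the NSD and at 615 and 524 CPM in the SD libraries (log2 fold change 0.24, edgeR adjusted p = 0.229, DESeq2 adjusted p = 0.0318), and the log2 fold change was 0.13 without SD 1 and 0.37 without SD 2. Csnk1a1 (−0.02, edgeR adjusted p = 0.948) and Ppp1cb (0.05, edgeR adjusted p = 0.834) were not called. Among the 17 corepressors and coactivators 0 were called by edgeR, by edgeR with the block or by DESeq2, and 0 had an unadjusted p under 0.05. Their log2 fold changes stayed between −0.12 and 0.12, with Ncor1 at 0.09, Kmt2a at 0.08 and Ddx5 at −0.10.

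**Figure D4:**
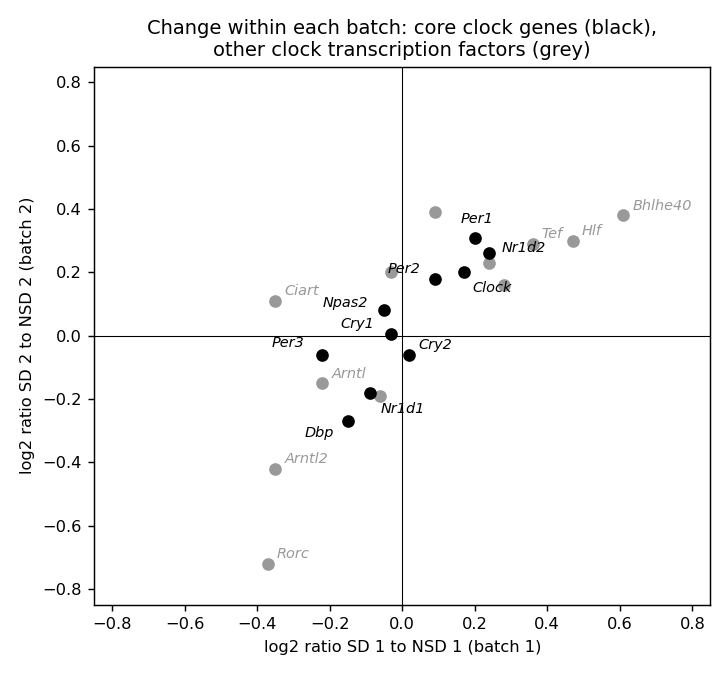
Log2 ratio of SD 1 to NSD 1 (horizontal axis, batch 1) and of SD 2 to NSD 2 (vertical axis, batch 2) for the core clock genes in black and the other clock transcription factors in grey, some unlabelled. Per1, Per2, Clock and Nr1d2 lie above 0 in both batches and Per3, Nr1d1 and Dbp below 0 in both, and Cry1, Cry2 and Npas2 are near the centre.

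Within the batches, 7 of the 10 clock genes (70.0%) had the same sign in both, beside 65.8% of the protein-coding genes. Per1, Per2, Clock and Nr1d2 were above 0 in both batches, and Per3, Nr1d1 and Dbp were below 0 in both. Per2 had log2 ratios of 0.09 and 0.18, Nr1d1 of −0.09 and −0.18, Dbp of −0.15 and −0.27, and Per3 of −0.22 and −0.06. The summed level of the 10 genes was 703 and 697 CPM in the NSD and 739.9 and 744 CPM in the SD libraries.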

How the data were processed

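fosTRAP-seq libraries (2 NSD, 2 SD) were analysed from the estimated counts per gene that the authors deposited without normalization. Per the study's methods, reads were trimmed, aligned with STAR to GRCm39 (mm39) and assigned to the genes of Ensembl release 110 in Partek Flow by expectation maximization, and the submitters' processing notes also name Partek and mm39. The library kit is stranded. The strand setting of the counting is not given in the sources used here. Of all genes, 55.6% had a value that was not whole, and counts were rounded. The genes above 5 counts in all 4 libraries entered edgeR 4.0.16 under R 4.3.3 (TMM scaling, quasi-likelihood, condition as the only term, Benjamini-Hochberg adjustment over all genes tested). Genes were called where the adjusted p was below 0.05 and the fold exceeded 1.2. P-values measure the spread between pooled libraries.

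Per the labels, the batch number of a library equals its replicate number, which pairs NSD with SD libraries. Across genes, libraries with the same number deviated from their group means with a correlation of 0.178. Alternatives were this block, DESeq2 1.42.0, its size factors in edgeR, no count filter, filterByExpr, protein-coding genes only, no fold threshold, each library left out, the longest transcript as length and a promoter window of 250 upstream bases. The fits were tested on simulated counts. The clock genes, the other clock lists and the markers were chosen with earlier results of these data known. Named were all 10 clock genes, genes of the other clock lists called in any of the 3 fits or among the 3 most abundant of a list, and genes sharing exons with a clock gene where their level bears on a value. Bhlhe41, Rora and Arntl were added for their roles, after their values were seen. Exon lengths and overlaps came from GENCODE for GRCm39, and promoters from RefSeq for GRCm38.p6.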

Additional observations from a re-analysis of the deposited data

How the results depend on the processing

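With 2 pools per group, the number of pools limits the precision. The 10 clock genes had 0 calls in every alternative run, the replicate block and each left-out library included, except DESeq2, which called 2. Of the 44 other clock genes 1 was called, and 4 with the replicate block, 5 with DESeq2, 2 with DESeq2 size factors in edgeR, 0 without a count filter, 0 with filterByExpr and 0 to 3 with a library left out (0 without NSD 1, 3 without NSD 2, 2 without SD 1 and 2 without SD 2). Over all genes 692 were called, and 2559 with the replicate block, 1967 with DESeq2, 130 without a count filter, 1 with filterByExpr, 90 with protein-coding genes only and 231 to 2244 with a library left out (231 without NSD 1, 2244 without SD 1, 1112 without SD 2). The share of calls that were higher in SD was 24.9%, and 34.1% with DESeq2, 38.5% without a count filter, 56.7% with protein-coding genes only, 13.0% without SD 1 and 62.3% without NSD 1. The causes were not tested.

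Per1, Per2, Clock and Nr1d2 kept a log2 fold change above 0, and Nr1d1 and Dbp below 0, in all 10 alternatives. The ranges were 0.22 to 0.31 for Per1 (adjusted p 0.00900 to 0.354), 0.23 to 0.29 for Nr1d2 (adjusted p 0.00746 to 0.300), 0.13 to 0.27 for Clock, 0.08 to 0.21 for Per2, −0.19 to −0.07 for Nr1d1 and −0.23 to −0.15 for Dbp. The sign turned for Per3, Cry1, Cry2 and Npas2. Per3 was 0.03 without NSD 1, and −0.28 to 0.03 over the left-out libraries. Cry1 was 0.01 with DESeq2 and with its size factors, 0.02 without a count filter and −0.05 to 0.05 over the left-out libraries. Cry2 was 0.0047 with DESeq2 and with its size factors, 0.01 without a count filter and −0.02 to 0.02 over the left-out libraries. Npas2 was −0.0038 with protein-coding genes only and −0.0098 to 0.07 over the left-out libraries. Among the other clock genes, Csnk1a1 was 0.0047 with DESeq2 and with its size factors, 0.01 without a count filter and −0.09 to 0.09 over the left-out libraries, and over the left-out libraries Ncor1 was 0.02 to 0.18, Ddx5 −0.14 to −0.03, Ppp1cb was −0.03 (without NSD 1) to 0.18 and Kmt2a −0.01 (without NSD 2) to 0.21. The median level per length was 15.4 with the longest transcript, against 10.2. The member counts for each promoter element were the same in the 250 upstream bases.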
